A study of Mus musculus with 11 samples.

Results

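The MHC class II genes were examined in RNA-seq libraries of CD4+ T cells from the mouse kidney. The group was fixed by symbol and holds 10 of the 35814 gene symbols of the table: the classical chain genes H2-Ab1, H2-Aa and H2-Eb1, the invariant chain gene Cd74, the peptide-loading genes H2-DMa, H2-DMb1, H2-DMb2, H2-Oa and H2-Ob, and the transactivator gene Ciita. All 10 were in the table and all 10 passed the filter on low counts in each comparison.

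Libraries came from kidneys of male C57BL/6 mice aged 8 to 12 weeks, on day 2 after ischemia and reperfusion injury (IRI) with 45 minutes of ischemia. The 3 CD4cre controls, labelled WT, carried Cre recombinase driven by the CD4 promoter and no floxed gene. The 5 CD4IKK1 mice carried the same Cre with a floxed gene for IKK1 (Chuk), and the 3 CD4NIK mice with a floxed gene for NIK (Map3k14). Both kinases belong to the non-canonical NFκB pathway. Since the CD4 promoter is active in the double-positive stage of thymic development, the Cre is not restricted to mature CD4+ cells. CD4+ cells were enriched on magnetic beads and sorted, and the RNA was amplified before sequencing, with 1 library per mouse. No sham-operated library was among them.

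MHC class II molecules are pairs of an alpha and a beta chain that hold peptides of ingested proteins on the surface of antigen-presenting cells, where the T cell receptor of CD4+ T cells reads them together with CD4. The invariant chain guards the new pair in the endoplasmic reticulum, DM exchanges its remnant for peptide in endosomes, and DO restrains DM. CIITA switches class II genes on, either constitutively in dendritic cells and B cells or after interferon-γ in macrophages and many other cells. Mouse T cells are known to make little class II RNA of their own.

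Levels are given in CPM, the usual share of a library's counts that a gene takes, after scaling with TMM factors. The libraries held between 15751632 and 25737046 estimated counts, so that 3 counts, used as the floor, stood at 0.115 to 0.212 CPM. The labelled cell type was checked with 15 T cell genes, whose summed level ran from 1581 to 3034 CPM in CD4cre, 15.3 to 1341 CPM in CD4IKK1 and 8174 to 12369 CPM in CD4NIK. The libraries CD4IKK1 1 and CD4IKK1 2 stood apart, with 41 and 868 counts of the constant T cell receptor genes against 5277 to 111648 in all others. Cd4 itself was at 2.07 and 7.22 CPM there. A fall of the targeted gene was not detected in the libraries of its label, which overlapped CD4cre: Chuk was at 15.3 to 26.5 CPM in CD4IKK1 and 16.3 to 33.2 CPM in CD4cre, and Map3k14 at 12.8 to 30.8 CPM in CD4NIK and 14.7 to 19.6 CPM in CD4cre. Map3k14 was lowest in CD4IKK1, at 1.87 to 9.24 CPM, below every CD4cre and CD4NIK library (log2 fold change -1.91 against CD4NIK, edgeR adjusted p = 0.00418, and -1.58 against CD4cre, edgeR adjusted p = 0.148). Gene totals do not show single exons, so the group names are used below as labels. In bulk RNA, fewer cells of a type and less RNA per cell cannot be told apart.

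The promoters are shown first, because NF-Y, which acts beside the RFX complex and CIITA in switching on class II genes, binds CCAAT, and class II promoters carry it in the reverse direction as the Y box. RefSeq promoter windows on build GRCm38.p6 were matched for 7 of the 10 members, with 8 windows since H2-DMa had 2. The 250 bases before the start were searched on both strands for ATTGG, which is the reverse of that motif, for the longer CTGATTGG, which contains it, and for TGACG, known as the core of the CREB site. ATTGG was present in 7 of 8 windows and in 33.8% of all 32851 windows, CTGATTGG in 3 of 8 against 3.83%, and TGACG in 1 of 8 against 17.8%. The 3 windows with CTGATTGG belonged to H2-Eb1, H2-Oa and H2-Aa. They are printed beside the upstream window of H2-DMa, in which none of these letters was found, while the other H2-DMa window, at chr17:34125268-34125517, holds ATTGG. Capitals mark the matches, and each window reads 5′ to 3′ on the strand of its gene.
H2-Eb1, at chr17:34305617-34305866 (plus strand), and H2-Oa, at chr17:34092129-34092378 (plus strand), are followed by H2-Aa, at chr17:34287824-34288073 (minus strand), and H2-DMa, at chr17:34122582-34122831 (plus strand).
H2-Eb1: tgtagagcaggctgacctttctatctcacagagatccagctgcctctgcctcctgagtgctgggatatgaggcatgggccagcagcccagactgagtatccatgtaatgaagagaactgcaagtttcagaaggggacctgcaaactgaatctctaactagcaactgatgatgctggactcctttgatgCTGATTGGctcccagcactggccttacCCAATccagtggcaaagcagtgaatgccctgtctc
H2-Oa: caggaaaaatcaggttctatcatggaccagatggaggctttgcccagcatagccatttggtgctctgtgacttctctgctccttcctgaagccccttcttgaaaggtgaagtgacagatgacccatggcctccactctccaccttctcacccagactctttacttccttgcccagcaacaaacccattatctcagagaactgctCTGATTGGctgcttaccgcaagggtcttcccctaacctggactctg
H2-Aa: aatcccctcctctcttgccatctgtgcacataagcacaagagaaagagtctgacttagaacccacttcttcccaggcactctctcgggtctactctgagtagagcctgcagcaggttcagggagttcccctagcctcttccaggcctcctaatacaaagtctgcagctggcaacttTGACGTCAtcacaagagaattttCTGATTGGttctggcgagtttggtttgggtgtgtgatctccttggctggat
H2-DMa: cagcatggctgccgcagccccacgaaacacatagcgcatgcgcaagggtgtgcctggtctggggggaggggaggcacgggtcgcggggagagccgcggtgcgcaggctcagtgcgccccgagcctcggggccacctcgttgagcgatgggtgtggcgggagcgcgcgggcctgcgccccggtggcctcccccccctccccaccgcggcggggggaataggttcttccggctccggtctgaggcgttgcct
H2-Aa carried both TGACG and CTGATTGG, and its RNA was at no more than 1.80 CPM in these libraries. The X box, known beside the Y box in class II promoters, was searched only as TGACG, so other forms of it could be missed. A match of letters is a description and not a bound site.

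On GRCm39, 8 of the members lie within 224 kb of chromosome 17 between 34311314 and 34535648, and Ciita lies on chromosome 16 from 10297923 to 10347694 (GENCODE mouse annotation). How far the counts of a member can be told from those of its neighbours was checked with the 31-base words of its annotated transcripts, the default word length of kallisto. Words of H2-DMb1 and H2-DMb2 were shared to a large part, since 37.6% of those in the main transcript of H2-DMb1 also occurred in H2-DMb2. The coding sequences, both 783 bases long, were 95.9% identical, whereas the classical beta chains H2-Ab1 and H2-Eb1 were 73.7% identical. A stretch of 120 bases holds 23 of the differences and is shown because it lets the copies be told apart. It covers bases 201 to 320 of both coding sequences, with the differences in capitals.
H2-DMb1: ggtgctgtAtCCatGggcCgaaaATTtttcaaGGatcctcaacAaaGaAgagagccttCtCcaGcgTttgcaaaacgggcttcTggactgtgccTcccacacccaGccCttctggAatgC
H2-DMb2: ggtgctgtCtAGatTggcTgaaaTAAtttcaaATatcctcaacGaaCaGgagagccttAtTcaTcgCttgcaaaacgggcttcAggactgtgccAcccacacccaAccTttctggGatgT
Reads outside such stretches could be split between the copies, so the values of each are uncertain and their sum is given as well. Of the words of the H2-Oa main transcript, 27.3% also lay in BC051537, a gene on the opposite strand. H2-Aa overlaps H2-Eb1 on the opposite strand. H2-Eb1 held 2% of the words of all H2-Aa transcripts, and the main H2-Aa transcript shared none with another gene. Counting by strand is not stated, so reads of such overlaps cannot be told apart.

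**Figure D1:**
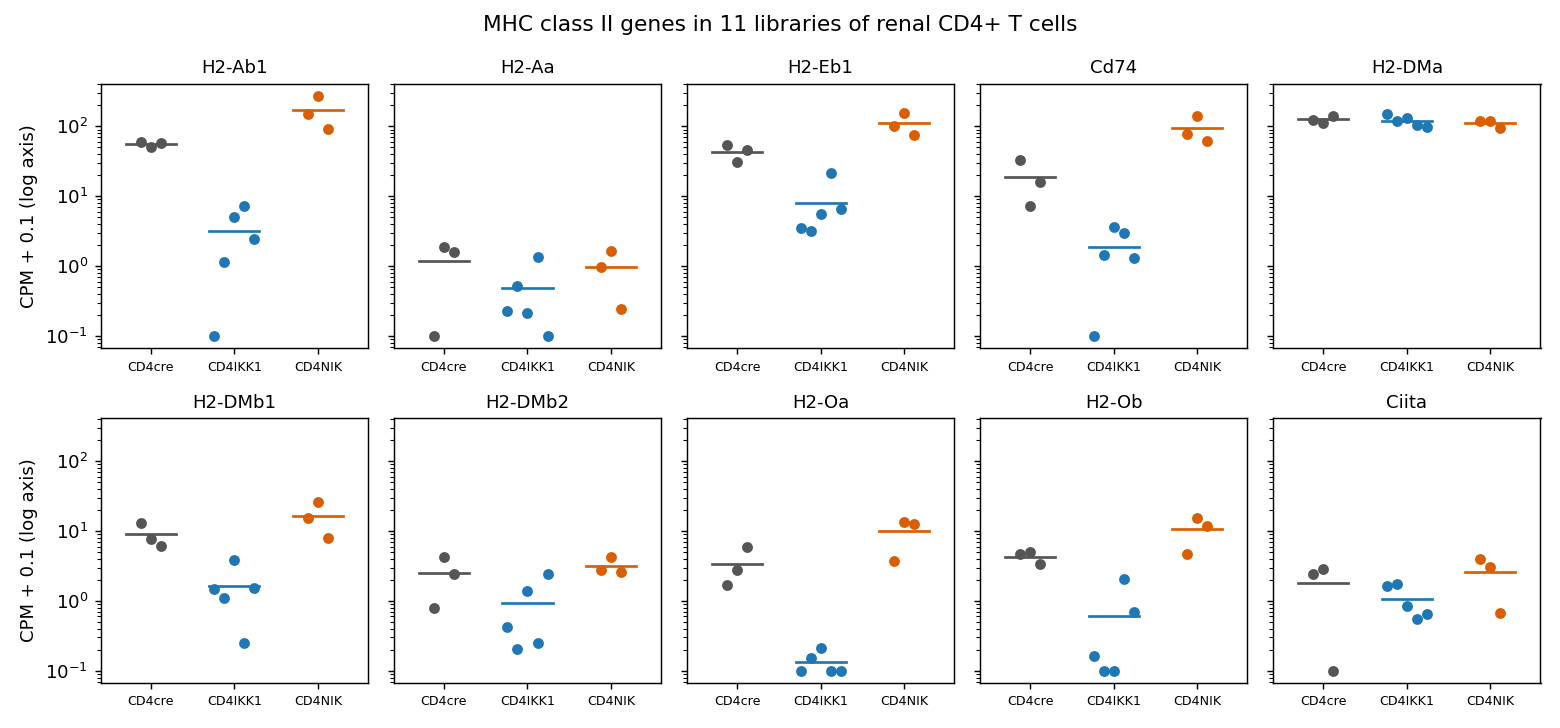
CPM of each class II gene in every library, with 0.1 CPM added, on a log axis. Points are libraries and lines are group means. The 5 CD4IKK1 libraries lie below the 3 CD4cre libraries for H2-Ab1, H2-Eb1, Cd74, H2-DMb1, H2-Oa and H2-Ob, the 3 CD4NIK libraries lie above CD4cre for H2-Ab1, H2-Eb1 and Cd74, and H2-DMa overlaps between all groups.

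H2-Ab1 encodes the beta chain of I-A, the main class II molecule of C57BL/6 mice. Its level was 60.2, 50.1 and 57.6 CPM in the CD4cre libraries, 0, 1.05, 4.92, 7.06 and 2.39 CPM in CD4IKK1, and 152, 275 and 90.8 CPM in CD4NIK. The groups did not overlap, with CD4IKK1 lowest and CD4NIK highest. The log2 fold change was -4.17 ± 0.99 (SE) between CD4IKK1 and CD4cre, with an edgeR adjusted p of 0.119, and 1.61 ± 0.36 between CD4NIK and CD4cre, with an edgeR adjusted p of 0.0224. Between CD4IKK1 and CD4NIK it was -5.80 ± 0.93, with an edgeR adjusted p of 0.000937.

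H2-Eb1 encodes the beta chain of I-E, whose alpha chain gene H2-Ea is not transcribed in C57BL/6 mice. The H2-Eb1 level was 53.4, 30.7 and 46.5 CPM in CD4cre, 3.36, 3.09, 5.54, 21.3 and 6.40 CPM in CD4IKK1, and 101, 154 and 76.2 CPM in CD4NIK. The groups again did not overlap, although CD4IKK1 4, at 21.3 CPM, stood above the other CD4IKK1 libraries. The log2 fold change was -2.45 ± 0.59 against CD4cre in CD4IKK1 (edgeR adjusted p = 0.104) and 1.33 ± 0.31 in CD4NIK (edgeR adjusted p = 0.0247). H2-Ea was listed at 0 in 10 of 11 libraries and at 0.331 CPM in CD4NIK 1.

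H2-Aa encodes the alpha chain that pairs with the product of H2-Ab1, but it was far below it. H2-Aa was at 0, 1.80 and 1.5 CPM in CD4cre, 0.129, 0.419, 0.113, 1.24 and 0 CPM in CD4IKK1, and 0.883, 1.57 and 0.141 CPM in CD4NIK. The groups overlapped and no comparison of H2-Aa passed the test with TMM scaling. With libraries scaled to the T cell markers it turned to a log2 fold change of 4.53 in CD4IKK1 against CD4NIK (edgeR adjusted p = 0.0440) and 1.89 in CD4IKK1 against CD4cre. Both values lay below the median of all genes under that scaling, given below. Per 100 counts of H2-Ab1 there were 0 to 3.60 counts of H2-Aa in CD4cre and 0.155 to 0.580 in CD4NIK, so that the RNA of the partner chains was not counted in like amounts in any of these libraries. Per 100 counts of H2-Ab1, H2-Eb1 gave 61.4 to 88.6 counts in CD4cre and 56.0 to 83.9 in CD4NIK, which overlap. In CD4IKK1 it gave 113 to 302 counts per 100 in the 4 libraries with any count of H2-Ab1, above all other libraries, but there H2-Ab1 itself was at 20 to 142 counts. H2-Aa gave 0 to 40 counts per 100 in those 4 libraries.

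Cd74 encodes the invariant chain, which also serves as a receptor for the cytokine MIF. Its level was 32.7, 7.25 and 16.1 CPM in CD4cre, 0, 1.36, 3.56, 2.88 and 1.22 CPM in CD4IKK1, and 76.6, 143 and 61.9 CPM in CD4NIK. CD4NIK was highest and CD4IKK1 lowest without overlap, and the CD4cre libraries were spread more widely than for H2-Ab1. The log2 fold change was -3.36 ± 0.94 in CD4IKK1 (edgeR adjusted p = 0.140) and 2.31 ± 0.54 in CD4NIK against CD4cre (edgeR adjusted p = 0.0241). Cd74 gave 14.5 to 54.2 counts per 100 counts of H2-Ab1 in CD4cre and 50.3 to 68.1 in CD4NIK, and 40.8 to 130 in the 4 CD4IKK1 libraries with any count of H2-Ab1.

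H2-DMa encodes the alpha chain of DM. With TMM scaling it had the smallest fold changes of the 10 members in each comparison and its groups overlapped, while with libraries scaled to the T cell markers its log2 fold change was 5.22, -2.42 and 7.64 in the 3 comparisons, the latter 2 past the threshold. The median of all genes moved by about as much under that scaling, as given below. H2-DMa was at 124, 113 and 141 CPM in CD4cre, 148, 119, 133, 106 and 98.5 CPM in CD4IKK1, and 118, 121 and 94.1 CPM in CD4NIK. The log2 fold change was -0.06 against CD4cre in CD4IKK1 (95% interval -0.39 to 0.27), -0.20 in CD4NIK (-0.64 to 0.24) and 0.13 between CD4IKK1 and CD4NIK (-0.23 to 0.48). CD4IKK1 1, in which 41 counts came from T cell receptor genes and no count from H2-Ab1 or Cd74, had the highest level of H2-DMa. In CD4IKK1, H2-DMa made up 75.1 to 95.6% of the counts of all 10 members, against 42.4 to 50.4% in CD4cre and 16 to 26.3% in CD4NIK. Part of its annotated transcripts overlaps Brd2, a widely expressed chromatin reader gene on the opposite strand, which shared 10.4% of their 31-base words. The main transcript of H2-DMa shared no such word with another gene. Brd2 itself was at 84.4 to 189 CPM in CD4cre, 58.7 to 104 CPM in CD4IKK1 and 164 to 199 CPM in CD4NIK, and its share in the H2-DMa counts was not tested.

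H2-DMb1 and H2-DMb2 encode the beta chains of DM. H2-DMb1 was at 13.0, 7.64 and 5.92 CPM in CD4cre, 1.36, 0.995, 3.79, 0.149 and 1.44 CPM in CD4IKK1, and 15.4, 25.9 and 7.76 CPM in CD4NIK. CD4IKK1 lay below both other groups, which overlapped each other. H2-DMb2 was at 0.692, 4.18 and 2.36 CPM in CD4cre, 0.323, 0.105, 1.30, 0.149 and 2.30 CPM in CD4IKK1, and 2.70, 4.08 and 2.47 CPM in CD4NIK. The sum of both genes, which does not depend on how shared reads were split between them, was 8.27 to 13.6 CPM in CD4cre, 0.298 to 5.09 CPM in CD4IKK1 and 10.2 to 29.9 CPM in CD4NIK. For H2-DMb1 the log2 fold change was -2.51 ± 0.78 in CD4IKK1 against CD4cre (edgeR adjusted p = 0.162) and -3.40 ± 0.72 against CD4NIK (edgeR adjusted p = 0.00249). For H2-DMb2 no comparison passed the test, and its estimates turned sign with libraries scaled to the T cell markers, which moved the median of all genes as well.

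H2-Oa and H2-Ob encode the chains of DO, which is known from B cells and some dendritic cells. H2-Oa was at 1.61, 2.63 and 5.71 CPM in CD4cre and 3.64, 13.6 and 12.6 CPM in CD4NIK, whereas all 5 CD4IKK1 libraries were at or under 3 counts, with 3 counts over the whole group. The summed counts, scaled by library size, were 99.5 times higher in CD4cre (95% counting interval 33.6 to 486) and 312 times higher in CD4NIK (106 to 1518), where the intervals cover counting error only. H2-Ob was at 4.54, 4.86 and 3.26 CPM in CD4cre, 0.0646, 0, 0, 1.94 and 0.586 CPM in CD4IKK1, and 4.52, 15.5 and 11.8 CPM in CD4NIK. CD4IKK1 lay below both other groups for H2-Oa and H2-Ob, and CD4cre and CD4NIK overlapped. Both fell in CD4IKK1 against CD4NIK, with edgeR adjusted p of 0.000129 for H2-Oa and 0.0109 for H2-Ob, and neither passed the threshold against CD4cre (edgeR adjusted p = 0.0850 and 0.303).

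Ciita, which encodes the transactivator, was low and no comparison of it passed the test with TMM scaling. With libraries scaled to the T cell markers its log2 fold change turned to 5.11, -1.25 and 6.34 in the 3 comparisons, the last past the threshold (edgeR adjusted p = 0.00712). The median of all genes moved in the same directions under that scaling, as given below. Ciita was at 2.34, 2.72 and 0 CPM in CD4cre, 1.55, 1.62, 0.735, 0.447 and 0.541 CPM in CD4IKK1, and 3.92, 3.00 and 0.565 CPM in CD4NIK. All groups overlapped. The log2 fold changes were -0.79 ± 1.22, 0.56 ± 1.31 and -1.35 ± 1.11, with 95% intervals that reached from -3.75 to 3.55 over the 3 comparisons, so a difference was not detectable beyond the spread of the libraries. The count of Ciita reached 71 in 1 library and was 0 in another.

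Between CD4IKK1 and CD4cre, all 10 members had a lower estimate in CD4IKK1, with a median log2 fold change of -2.48 against 0.02 over all genes, but with libraries scaled to the T cell markers 4 of 10 were lower and the median was 1.71, against 4.99 over all genes. A call needed an edgeR adjusted p under 0.05, by Benjamini-Hochberg over all genes tested, and a more than 2-fold difference. No member was called, and the background was 0% of 15653 genes, with 2592 genes at an unadjusted p under 0.05, 5 members among them. DESeq2 called 542 genes, 502 of them lower, which are 4.46% of the genes it adjusted, and 4 members: H2-Ab1, H2-Eb1, Cd74 and H2-DMb1. It gave no adjusted p for H2-Aa, H2-DMb2, H2-Oa, H2-Ob and Ciita. In 6 of 10 members every CD4IKK1 library lay below every CD4cre library, against 8.44% of all genes. Without CD4IKK1 1 and 2, the libraries with the fewest T cell receptor counts, 1 member was called (H2-Ab1, log2 fold change -3.55, edgeR adjusted p = 0.0342), against 0.239% of all genes called lower in that fit, and the median was -2.14. Without CD4IKK1 4, H2-Eb1 was called (-3.24, edgeR adjusted p = 0.0187), against 0.15% of all genes. Other lists had lower estimates in the same comparison. The class I genes B2m, H2-K1 and H2-D1 were lower in 3 of 3, with a median log2 fold change of -2.67, and the T cell genes in 15 of 15, with a median of -2.12 and 7 of 15 without overlap. Macrophage genes were lower in 11 of 12 tested, with a median of -2.29 and 4 without overlap, among them Lyz2 (-4.58) and C1qb (-2.82). None of these genes was called by edgeR, and with libraries scaled to the T cell markers the median of all genes was 4.99, as above.

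**Figure D2:**
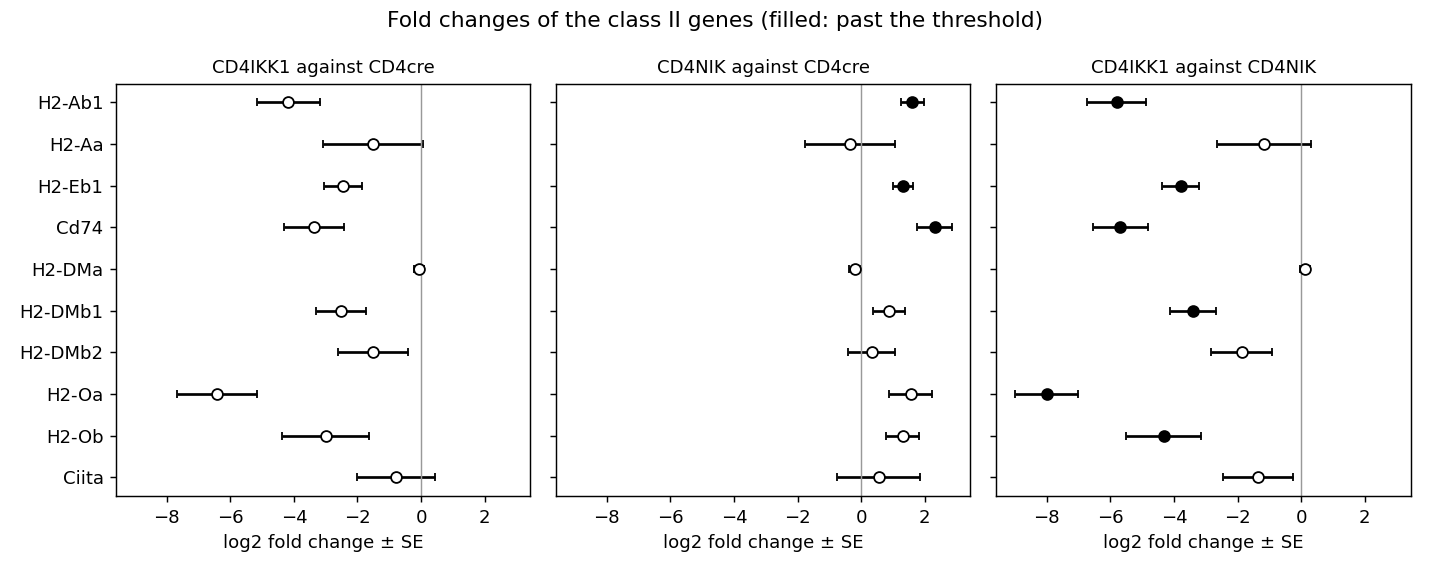
Log2 fold change ± SE of each class II gene in the 3 comparisons from edgeR. Filled points passed the threshold of an adjusted p under 0.05 and a more than 2-fold difference: 0, 3 and 6 genes from left to right. H2-DMa is at -0.06, -0.20 and 0.13. Signs hold for TMM scaling, and scaling to T cell markers turned 6, 7 and 6 of the 10. That scaling also moved the median of all genes, as given in the text.

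Between CD4NIK and CD4cre, H2-Ab1, H2-Eb1 and Cd74 rose in CD4NIK, by 3.04-fold, 2.51-fold and 4.96-fold, while with libraries scaled to the T cell markers H2-Ab1 and H2-Eb1 turned lower and no rise was called. H2-Ab1 and H2-Eb1 then still lay above the median of all genes under that scaling, given below. The rises called with TMM scaling are 3 of 10 members, against 10.4% of 15209 genes called higher. The same 3 were also those whose groups did not overlap, against 22.9% of all genes. H2-Oa and H2-Ob had 2.94-fold and 2.47-fold higher estimates with unadjusted p of 0.0463 and 0.0344 and edgeR adjusted p of 0.129 and 0.105. The median log2 fold change of the members was 1.09, against -0.02 over all genes. The 3 calls depended on the libraries used: no member was called without CD4cre 2, without CD4cre 3, without CD4NIK 2 or with all 11 libraries in the fit, and 5 were called without CD4NIK 1, with H2-Oa and H2-Ob added, against 10.5% of all genes called higher in that fit. Without CD4NIK 3, Cd74 was not called (edgeR adjusted p = 0.0558). The log2 fold change of Cd74 ran from 1.91 to 2.98 when each library was left out. Both comparisons with CD4cre share the CD4cre libraries, so they are not independent.

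Between CD4IKK1 and CD4NIK, H2-Ab1, H2-Eb1, Cd74, H2-DMb1, H2-Oa and H2-Ob fell in CD4IKK1, but with libraries scaled to the T cell markers H2-Eb1, H2-DMb1 and H2-Ob turned higher and no fall was called. H2-Eb1, H2-DMb1 and H2-Ob then still lay below the median of all genes under that scaling, given below. The falls called with TMM scaling are 6 of 10 members, against 18.5% of 16546 genes called lower. In 7 of 10, the 6 and H2-DMb2, every CD4IKK1 library lay below every CD4NIK library, against 24.4% of all genes. The log2 fold change was -3.79 ± 0.58 for H2-Eb1 (edgeR adjusted p = 0.000497), -5.69 ± 0.87 for Cd74 (edgeR adjusted p = 0.000564) and -4.32 ± 1.18 for H2-Ob. The median over the members was -3.60, against 0.06 over all genes. Leaving out any 1 library left 6 or 7 calls, the 7 with H2-DMb2 added when CD4IKK1 5 was left out, and leaving out CD4IKK1 1 and 2 together left 6. With each library left out, the log2 fold change of H2-Ob ran from -5.90 to -3.95.

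Ordered by level per length, in CPM per kb of the main annotated transcript, H2-DMa came first in CD4cre (110 ± 12.6, SD, n = 3), followed by H2-Ab1 (46.2 ± 4.36), H2-Eb1 (25.7 ± 6.84) and Cd74 (13.1 ± 9.02). H2-DMa, H2-Ab1 and H2-Eb1 did not overlap as neighbours, and H2-Eb1 overlapped Cd74. Below them came H2-DMb1 (6.29 ± 2.61), H2-Oa (2.75 ± 1.77), H2-DMb2 (1.65 ± 1.20), H2-Ob (1.56 ± 0.313), H2-Aa (0.976 ± 0.856) and Ciita (0.226 ± 0.197), in which each neighbour overlapped the next. In CD4NIK, H2-Ab1 came first at 142 ± 77.3 CPM per kb (SD, n = 3), but it overlapped H2-DMa at 96.3 ± 12.7. In CD4IKK1, H2-DMa stood at 105 ± 17.3 CPM per kb (SD, n = 5), and H2-Eb1, the next, at 4.68 ± 4.48.

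**Figure D3:**
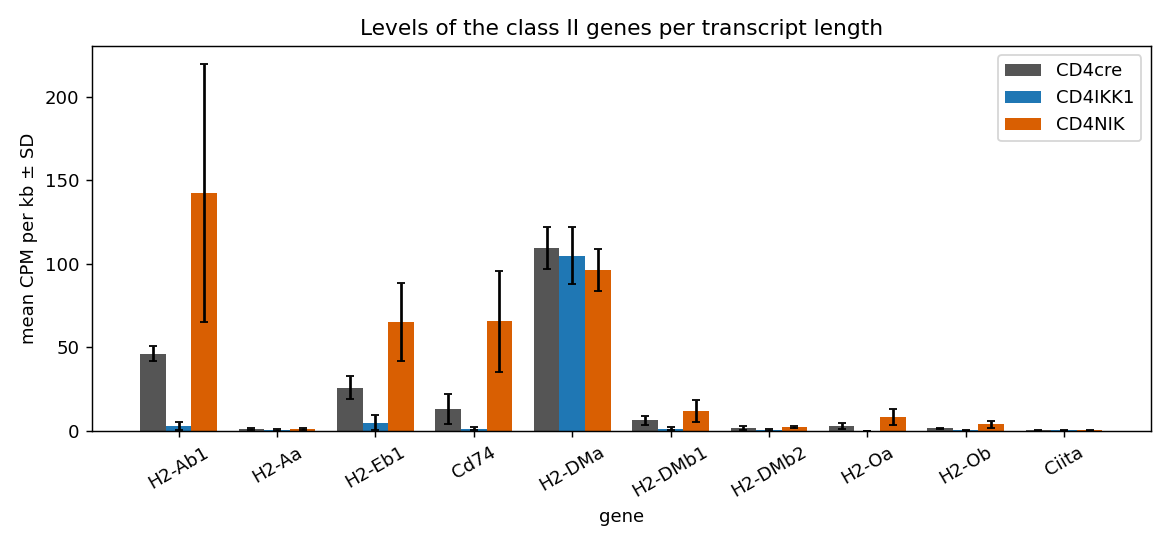
Mean level of each class II gene per kb of its main annotated transcript, in CPM per kb, with bars for each group and error bars for the SD (n = 3, 5 and 3). H2-DMa is at 96.3 to 110 in all groups, while H2-Ab1 is at 46.2, 2.54 and 142 in CD4cre, CD4IKK1 and CD4NIK.

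Among themselves, H2-Ab1, H2-Eb1, Cd74, H2-Oa and H2-Ob shared 1 pattern across the 11 libraries. The log2 CPM of each was set against the mean of the other members, and Pearson's r was 0.95 for H2-Ab1 and H2-Eb1, 0.92 for Cd74 and H2-Oa, 0.86 for H2-Ob, 0.80 for H2-DMb1 and 0.69 for H2-DMb2. It was 0.37 for H2-Aa, 0.14 for Ciita and -0.21 for H2-DMa. These values describe 11 libraries that fall into 3 groups, and the shared group levels enter each of them. Among 14040 other genes with a mean of at least 1 CPM, the most alike to the mean of all members were Atp13a1 (r = 0.98), Gm18860, Snx20, Icam1, Cdk13, Vps72, Ccdc88c, Padi2, Gps2 and Xlr4b, each at 0.97 after the first.

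The factors that act with CIITA on class II promoters are the RFX complex, NF-Y and CREB1. For this and the following lists the background is again 10.4% of all genes called higher in CD4NIK against CD4cre and 18.5% called lower in CD4IKK1 against CD4NIK. Of these 7 genes, 2 rose in CD4NIK against CD4cre, Rfxank from a mean of 10.6 to 38.0 CPM and Creb1 from 13.1 to 59.8 CPM (edgeR adjusted p = 0.0100 and 0.0193). In CD4IKK1 against CD4NIK 3 of 7 fell, Creb1, Rfxank and Nfya, and none was called against CD4cre. Rfxap was at 109 to 155 CPM in all libraries, and Rfx5, the DNA-binding subunit, was at 4.91 to 10.8 CPM in CD4IKK1 and 6.12 to 9.72 CPM in CD4cre. In CD4NIK Rfx5 was at 10.2 to 20.4 CPM, above every CD4cre library, with a log2 fold change of 0.95 that did not pass the threshold (edgeR adjusted p = 0.123).

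Of the interferon-γ axis, which leads to CIITA, 5 of 7 tested genes rose in CD4NIK against CD4cre. Irf2, Ifngr1 and Ifng were among them. Ifngr2, the other receptor chain, went the other way, with every CD4NIK library below every CD4cre library (log2 fold change -0.65, edgeR adjusted p = 0.0381). It was higher in CD4IKK1 than in CD4NIK (0.73, edgeR adjusted p = 0.00106), and both differences were under 2-fold. Ifng was at 363, 135 and 110 CPM in CD4cre, 0, 1.99, 32.3, 35.6 and 53.2 CPM in CD4IKK1, and 877, 769 and 1069 CPM in CD4NIK, without overlap. In CD4IKK1 against CD4NIK 6 of 8 fell, among them Jak1, Irf2 and Ifngr1. Against CD4cre none of the 8 was called in CD4IKK1.

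Of 9 genes of endosomal processing, 1 rose in CD4NIK against CD4cre, Ifi30, which encodes a thiol reductase for antigens (log2 fold change 1.34, edgeR adjusted p = 0.0382), a share near the background. In CD4IKK1 against CD4NIK 5 of 9 fell. Among them Ctsd fell by 1.61 on the log2 scale, Ifi30 by 3.61, Ctss, the protease that trims the invariant chain, by 3.89, and Ctsz by 3.20. Of the genes for class II turnover and for the MIF receptors, Cd44 rose in CD4NIK against CD4cre (2.72). In CD4IKK1 against CD4NIK, Marchf1, the ligase that removes class II from the surface, and Mif rose by 1.51 and 1.11, against 14.8% of all genes called higher, while Cd44 and Cxcr4 fell.

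Of 7 costimulatory and coinhibitory genes, 3 rose in CD4NIK against CD4cre, Cd274 (log2 fold change 3.03), Pdcd1lg2 (1.56) and Cd83 (1.47). Cd274 and Pdcd1lg2 encode PD-L1 and PD-L2, the inhibitory ligands of PD-1. In CD4IKK1 against CD4NIK 5 fell, these 3, Icosl, the ligand of ICOS, and Cd86. Cd80, Cd86 and Cd40, which mark mature antigen-presenting cells, were at or under 3.53 CPM in all libraries and were not called in CD4NIK against CD4cre. Cd86 was at 1.17 to 3.06 CPM in CD4cre, 0.315 to 0.84 CPM in CD4IKK1 and 1.66 to 3.46 CPM in CD4NIK, so that CD4IKK1 lay below both other groups (log2 fold change -2.33 against CD4NIK, edgeR adjusted p = 0.0130). Class I genes moved the same way: B2m, H2-K1 and H2-D1 rose in CD4NIK against CD4cre, with log2 fold changes of 3.16, 1.51 and 1.77, and fell in CD4IKK1 against CD4NIK. Cd4, the receptor that binds class II, rose by 2.49 in CD4NIK against CD4cre and fell by 3.87 in CD4IKK1 against CD4NIK. Signs of these lists refer to TMM scaling, since scaling to T cell markers moved the median of all genes to 4.99, -2.22 and 7.18 in the 3 comparisons. The lists are described by counts alone.

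Markers of antigen-presenting cells are given beside the class II genes, and their part in the results was not tested. Of 14 macrophage genes 12 were tested, of which 2 rose in CD4NIK against CD4cre, Ccr2 (log2 fold change 2.92) and Ly6c2 (5.16), which T cells are also known to express, and 7 fell in CD4IKK1 against CD4NIK, among them Ly6c2, Lyz2, Ccr2 and C1qc. In CD4NIK against CD4cre 8 of the 12 had a lower estimate, with a median log2 fold change of -0.63, among them C1qa (-1.09) and Mertk (-1.18), neither of which was called. The summed level of 14 macrophage genes was 488 to 1944 CPM in CD4cre, 111 to 277 CPM in CD4IKK1 and 919 to 1169 CPM in CD4NIK, so that CD4cre and CD4NIK overlapped, unlike H2-Ab1. Lyz2 ran from 82.8 to 351 CPM in CD4cre, 0.942 to 23.5 CPM in CD4IKK1 and 174 to 328 CPM in CD4NIK. The library CD4cre 1, highest for this list, was the highest CD4cre library for the T cell genes, H2-Ab1, H2-Eb1, Cd74 and H2-DMb1. Among the CD4cre libraries it was also the lowest for H2-Aa, H2-DMb2 and H2-Oa. CD4IKK1 4, highest of its group for Lyz2 and C1qa, held the H2-Eb1 value of 21.3 CPM. In its group it was highest for H2-Ab1, H2-Aa and H2-Ob too, but lowest for H2-DMb1 and Ciita. Of 10 B cell genes, the summed level was 68.2 to 141 CPM, 4.98 to 26 CPM and 196 to 666 CPM in the same order, without overlap, as for H2-Ab1. Ighm, the heavy chain of immunoglobulin M, took most of it in CD4cre and CD4NIK, at 61.8 to 138 and 190 to 655 CPM, and was at 0.84 to 25.0 CPM in CD4IKK1. Ighm rose in CD4NIK against CD4cre (2.29) and fell in CD4IKK1 against CD4NIK (-5.47). Cd79b, a chain of the B cell receptor complex, also fell there (-6.41, edgeR adjusted p = 0.00637), from a mean of 5.93 CPM in CD4NIK to 0.0628 CPM, with 2.17 CPM in CD4cre. Fcrla was at 0 in CD4cre and CD4IKK1 and at 0.494 to 1.66 CPM in CD4NIK, Blk was at 0.565 to 0.883 CPM in CD4NIK and at most 0.226 CPM elsewhere, and Pax5 was at 0 in 7 of 11 libraries. Other B cell genes did not follow the class II genes. Ms4a1, which encodes CD20, was at 0.366 to 3.17 CPM in CD4IKK1, above every CD4cre library, which were at 0.0769 to 0.351 CPM, and at 0.110 to 1.38 CPM in CD4NIK. Ebf1 had a higher estimate in CD4IKK1 against CD4cre (1.43) and against CD4NIK (1.41), neither it nor Ms4a1 was called, and of the Pax5 counts 40 lay in CD4IKK1 and 3 in CD4NIK. Of the 4 B cell genes tested in CD4IKK1 against CD4cre, 2 had a lower and 2 a higher estimate. The sum of 9 dendritic cell genes was 15.2 to 19.2 CPM, 8.74 to 26.3 CPM and 24.1 to 35.9 CPM, with Clec9a at 0 in 9 of 11 libraries and Itgax at no more than 4.97 CPM. Xcr1, a chemokine receptor of cross-presenting dendritic cells, was the 1 dendritic gene called. Its level was at a mean of 2.46 CPM in CD4cre, 0.735 CPM in CD4IKK1 and 13.0 CPM in CD4NIK, rising in CD4NIK against CD4cre (2.40, edgeR adjusted p = 0.0214) and falling in CD4IKK1 against CD4NIK (-4.14, edgeR adjusted p = 0.000297), while CD4IKK1 and CD4cre overlapped (edgeR adjusted p = 0.337). Flt3, the receptor of a dendritic cell growth factor, went the other way, at 1.40 to 6.00 CPM in CD4cre, 0.735 to 9.06 CPM in CD4IKK1 and 0 to 0.541 CPM in CD4NIK, and was not called. Siglech and Batf3 overlapped between all groups. Kidney tubule genes summed to 16.0 to 72.5 CPM in CD4cre, 2.62 to 8.88 CPM in CD4IKK1 and 11.5 to 88.4 CPM in CD4NIK, with CD4IKK1 below both other groups, and Kap and Umod fell in CD4IKK1 against CD4NIK (-4.04 and -4.48). Endothelial genes summed to 58.4 to 106 CPM over all libraries, with Pecam1 higher in CD4NIK against CD4cre (1.29), and Pecam1 lower (-1.72) and Egfl7 higher (1.31) in CD4IKK1 against CD4NIK. These signs hold for TMM scaling.

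Of the 15 T cell genes, 13 rose in CD4NIK against CD4cre, with Cd5, Lat, Lck and Skap1 at the smallest p, and all 15 fell in CD4IKK1 against CD4NIK, with Skap1, Lck, Cd3e and Cd28 at the smallest p. In a fit with the mean log2 CPM of the macrophage, dendritic and B cell genes as a covariate, 0 of 10 members were called in each comparison, and the median log2 fold changes were -0.30, 0.15 and 0.40. With the T cell genes as covariate they were -1.42, 0.82 and -2.04, again with 0 members called. No gene at all was called in 5 of these 6 fits, and 338 genes in the other. Each score differed between the groups itself, so group and score cannot be told apart in these fits.

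**Figure D4:**
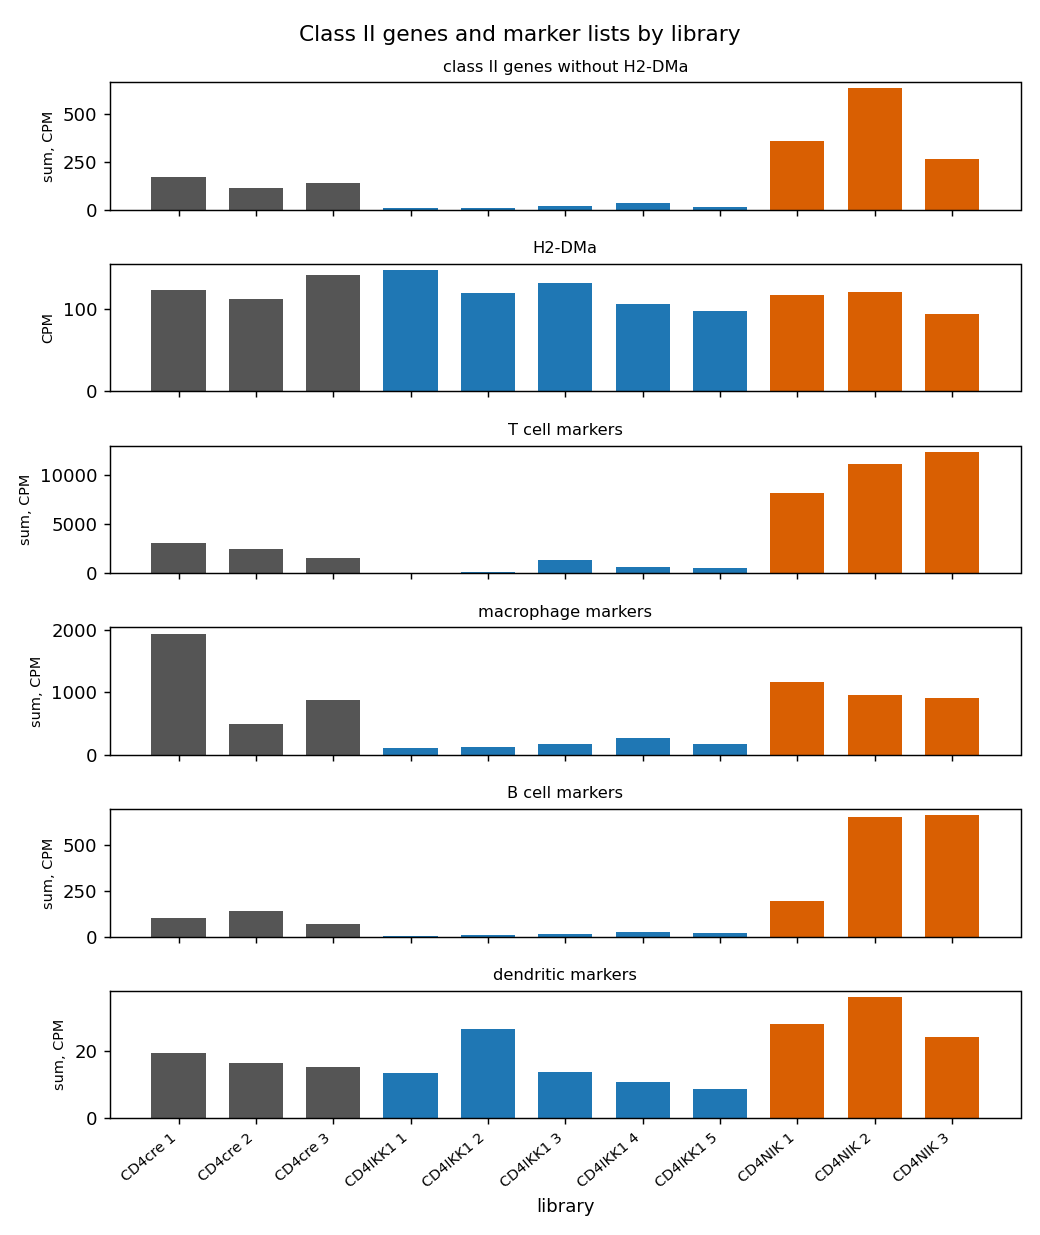
Summed CPM of the 9 class II genes other than H2-DMa, the CPM of H2-DMa, and the summed CPM of T cell, macrophage, B cell and dendritic cell genes in each library, on axes that start at 0. The 9 genes sum to 112 to 168 CPM in CD4cre, 6.79 to 35.2 CPM in CD4IKK1 and 264 to 635 CPM in CD4NIK, while H2-DMa stays between 94.1 and 148 CPM.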

How the data were processed

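RNA of CD4+ T cells sorted from kidneys on day 2 after IRI was sequenced from 11 mice in 3 groups, as labelled. After Trimmomatic trimming, reads were quantified by the authors with kallisto, and the deposited table gives unscaled estimated counts for each gene symbol. The labels list build mm10 and the study's methods GRCm39. The kallisto version, annotation and strand setting are not given in the sources used here. Of the deposited values, 35.1 to 41.7% per library were not whole, and the estimated counts were rounded.

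Genes were filtered by filterByExpr, scaled with TMM factors and compared by the quasi-likelihood test of edgeR 4.0.16 with robust settings (R 4.3.3; two-sided, Benjamini-Hochberg over all genes tested). Comparisons with CD4cre used their own groups, and CD4IKK1 against CD4NIK used all 11 libraries. A gene was called at an adjusted p under 0.05 when it differed by more than 2-fold. SE came from the F statistic. CPM used TMM factors over all libraries, and correlations used log2 CPM with a prior count of 2. Named were all members, of each other list the genes past the threshold (up to 4 per comparison), and the 10 most alike genes. Some genes of the lists are not reported here by name. The members, lists, tests and alternatives were chosen with earlier results of these data known. Alternatives were DESeq2 1.42.0, other scalings, filters, covariates and sets of libraries. None of the 55 pairs of libraries held identical values, and the tests were checked on simulated counts. Coordinates came from GENCODE on GRCm39 and promoter windows from RefSeq on GRCm38.p6.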

Additional observations from a re-analysis of the deposited data

Results flagged for a closer look

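H2-Eb1 was at 21.3 CPM in CD4IKK1 4, while the nearest library of that group was at 6.40 CPM. The gap made up 0.818 of the range of the 5 libraries, above Dixon's 95% critical value. It was the only 1 of 10 genes marked in CD4IKK1, and chance marks about 1 in 20.

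The effects of the labels CD4IKK1 and CD4NIK against CD4cre differed for 6 members. Since both share the CD4cre libraries, the test of this difference is the comparison of CD4IKK1 with CD4NIK, with log2 fold changes of -5.80 for H2-Ab1, -3.79 for H2-Eb1, -5.69 for Cd74, -3.40 for H2-DMb1, -8.01 for H2-Oa and -4.32 for H2-Ob. The edgeR adjusted p ran from 0.000129 to 0.0109. For H2-Oa the fitted value rests on 3 counts in CD4IKK1 and depends on the prior count.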

How the results depend on the processing

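Values are log2 fold changes unless called counts. For CD4IKK1 against CD4cre the count of members called, 0, became 4 with DESeq2, 1 with all 11 libraries (H2-Oa), 5 with DESeq2 on all 11, 1 without CD4IKK1 1 and 2, and 0 to 1 when each library was left out. For CD4NIK against CD4cre the count, 3, became 4 with DESeq2 (H2-Ob added, 1.34, DESeq2 adjusted p = 0.0458), 1 with scaling to T cell markers (H2-DMa, lower), 0 with all 11 libraries, 1 with DESeq2 on all 11, 0 with the antigen-presenting-cell score or the T cell score as covariate, and 0 to 5 when each library was left out. For CD4IKK1 against CD4NIK the count, 6, became 3 with scaling to T cell markers (H2-DMa, H2-Aa and Ciita, higher), 1 of the 2 members left with 10 counts in every library, 0 with either covariate, and 6 to 7 when each library was left out.

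Scaling to T cell markers turned the sign in CD4IKK1 against CD4cre for H2-Aa 1.89, H2-Eb1 1.52, H2-DMa 5.22, H2-DMb1 2.37, H2-DMb2 1.97 and Ciita 5.11, in CD4NIK against CD4cre for H2-Ab1 -0.60, H2-Eb1 -0.88, H2-DMb1 -1.20, H2-DMb2 -1.91, H2-Oa -0.94, H2-Ob -0.93 and Ciita -1.25, and in CD4IKK1 against CD4NIK for H2-Aa 4.53, H2-Eb1 2.39, H2-DMb1 3.55, H2-DMb2 3.86, H2-Ob 0.46 and Ciita 6.34. The antigen-presenting-cell score turned H2-Ab1 1.19, H2-Eb1 0.82, Cd74 4.23 and H2-Ob 0.35 in CD4IKK1 against CD4cre, H2-DMb1 -0.39 in CD4NIK against CD4cre, and H2-Ab1 0.62, H2-Aa 1.08, H2-Eb1 0.53, Cd74 2.18, H2-DMb1 0.29, H2-DMb2 0.49 and H2-Ob 0.31 in CD4IKK1 against CD4NIK. The T cell score turned H2-Aa 4.37, H2-DMa 0.33, H2-DMb1 -0.27 and H2-Ob -1.66 in CD4NIK against CD4cre and H2-DMa -0.20 and H2-DMb2 0.051 in CD4IKK1 against CD4NIK. Upper-quartile factors turned H2-DMa to 0.034 in CD4IKK1 against CD4cre and moved the median of all genes to 0.11, -0.16 and 0.30. Library size alone moved it to -0.15 in CD4NIK against CD4cre and 0.16 in CD4IKK1 against CD4NIK. When each library was left out, H2-DMa ran from -0.15 to 0.027 in CD4IKK1 against CD4cre, and in CD4NIK against CD4cre H2-Aa ran from -1.07 to 0.22, H2-DMb2 from -0.10 to 1.02 and Ciita from -0.0092 to 1.10. Scaling to T cell markers also moved the median of all genes, to the values given above. The cause of these changes was not tested.

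The replicate numbers of the labels did not pair the samples, since the deviations of 9 same-number pairs correlated at -0.09 to 0.08. With the replicate number as a block, 0, 0 and 6 members were called in the 3 comparisons, and the sign turned for H2-DMa 0.080 and Ciita 0.60 in CD4IKK1 against CD4cre and for H2-Aa 0.11 in CD4NIK against CD4cre. Depth limits H2-Oa in CD4IKK1, where every library was at or under 3 counts.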
